A study of Mus musculus with 24 samples.

Results

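A block of 909 Ensembl gene IDs, made up mainly of small nucleolar RNA (snoRNA), small nuclear RNA (snRNA) and microRNA genes, was followed in mouse cortex and hippocampus. The block runs from ENSMUSG00000064400 to ENSMUSG00000065946 in a table of 23879 IDs. Of these, 221 had a mean log2 signal over all 24 arrays above 6.63, the 40th percentile of the table, and are called members below. The choice used mean brightness alone, so brightness is described here and not tested. The reference tables used here list 0 of the 221 IDs. Members are therefore given by ID, with no gene name, RNA class or sequence, and whether a single member is a snoRNA, an snRNA or a microRNA gene was not checked.

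snoRNAs guide the chemical modification of ribosomal and small nuclear RNA, the C/D box class directing ribose methylation and the H/ACA box class directing pseudouridylation. Spliceosomal snRNAs carry out the removal of introns, and microRNAs repress messenger RNAs that pair with their seed. In mammals most snoRNAs are cut from the introns of host genes and microRNAs from longer primary transcripts, and several clusters of both kinds are known from the imprinted genes of the brain.

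The study asked what happens to age-related expression in each region when mice lack ApoD, a lipid carrier of the lipocalin family. All mice were male C57BL/6J, wild type (WT) or ApoD-KO (KO), and were 100 days old (young) or 655 days old (old). Region, genotype and age made 8 groups of 3 Affymetrix arrays, each array carrying pooled RNA from 2 to 3 mice. Pooling narrows the spread between arrays below that between single mice, and p-values describe the spread between pools. The labels do not say which cells or tissues lose ApoD or how the allele was made. Markers of cortex, hippocampus, blood or choroid plexus, and the Apod transcript, were not matched to IDs, so region and genotype labels were not checked by expression here. In tissue RNA, fewer cells of a type and less RNA per cell cannot be told apart. An array signal for a small RNA gene also does not separate the mature RNA from its precursor or host transcript.

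The ID block was dim. Its median level was 5.36 log2, against 7.39 over all 23879 IDs, and the 90th percentile of the block was 7.89. Members ran from 6.64 to 13.7 log2 with a median of 7.66, while the other 14106 IDs above the threshold had a median of 8.94. The brightest member was ENSMUSG00000065037, which read 13.5 to 13.9 on the 24 arrays, followed by ENSMUSG00000064945 with 12.9 to 13.7. Just inside the threshold lay ENSMUSG00000065400 (mean 6.636) and ENSMUSG00000065437 (6.643), and just outside it ENSMUSG00000064748 (6.621) and ENSMUSG00000064855 (6.620).

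**Figure D1:**
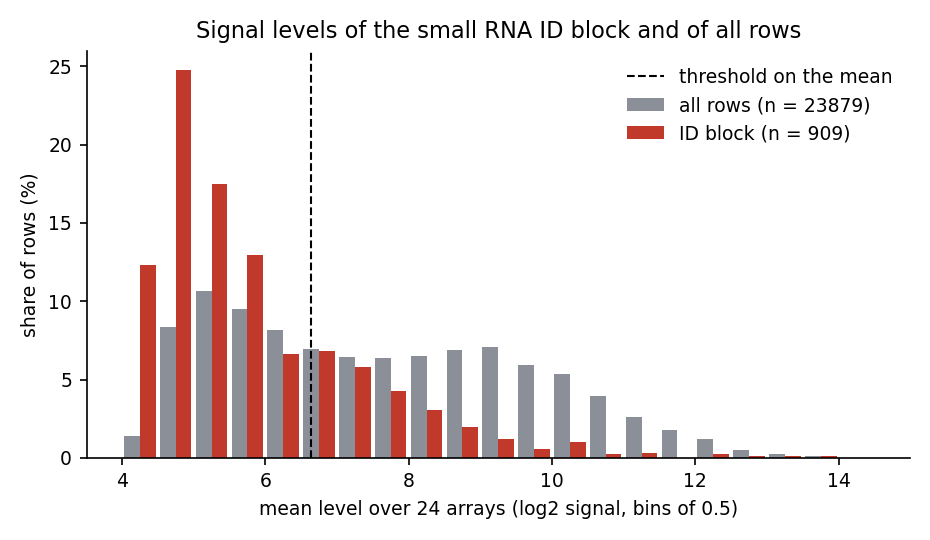
Share of IDs (%) by mean log2 signal over the 24 arrays, in bins of 0.5, for all 23879 rows (grey) and for the 909 IDs of the block (red). The dashed line is the threshold of 6.63, and 221 IDs of the block lie to its right.

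Members were found in each stretch of the block. In the first range, ENSMUSG00000064400 to ENSMUSG00000064899, 64 of 279 IDs were members (22.9%). From ENSMUSG00000064900 to ENSMUSG00000065399 it was 51 of 271 (18.8%), and from ENSMUSG00000065400 to ENSMUSG00000065946 it was 106 of 359 (29.5%). The median level was 7.82, 7.58 and 7.5 log2 in that order.

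Arrays of one group differed more at the members than at other IDs. The median within-group SD was 0.165 log2 over members and 0.0922 over the other tested IDs, with a range over members of 0.0626 to 0.471. This held at each brightness. Between 6.63 and 8 log2 the medians were 0.154 (140 members) and 0.109, between 8 and 9 they were 0.171 (46 members) and 0.103, between 9 and 10 they were 0.180 (16 members) and 0.0887, and above 10 they were 0.171 (19 members) and 0.0690. These values are a description over IDs and were not tested.

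**Figure D2:**
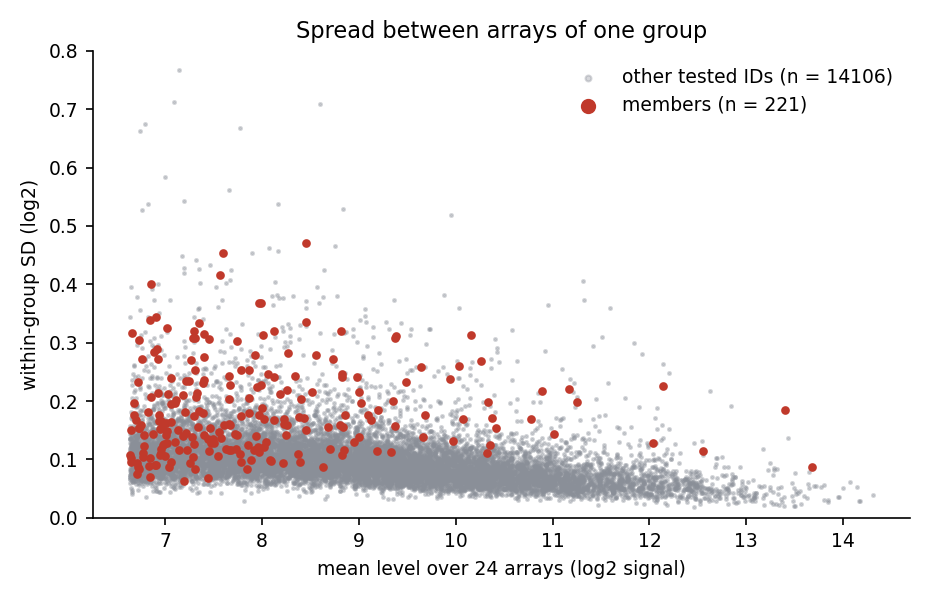
Within-group SD (log2, over 8 groups of 3 arrays) against mean log2 level over the 24 arrays, for the 221 members (red) and 14106 other tested IDs (grey). Members with an SD above the grey median of 0.0922 are found at each level, bright ones included.

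The 2 members with the largest within-group SD show what this spread looks like. ENSMUSG00000065824 (SD 0.471) read 9.11, 9.61 and 8.47 log2 on the 3 young WT cortex arrays, 9.35, 9.44 and 8.46 in young KO cortex, 9.15, 8.27 and 8.24 in old WT cortex, and 7.96, 8.15 and 7.85 in old KO cortex. In hippocampus it ran from 7.55 to 8.88 over the 12 arrays, both of these ends being young KO arrays. One array of each young cortex group lay nearer to the 2 lower old WT arrays than to its own group's other arrays, and the third old WT array lay as high as the young ones. ENSMUSG00000064701 (SD 0.454) read 8.09, 8.11 and 6.91 in old WT cortex and 6.51, 7.70 and 7.91 in old KO hippocampus, so in both groups 1 array lay more than 1 log2 below the other two.

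Part of the members' deviations from their group means was shared. A single component held 37.2% of the within-group variance of the members, against 22.3% over the other tested IDs. Of the 221 members, 129 had a positive loading on it, so not all moved the same way. The component was taken without scaling, so members with a larger SD weigh more in it. The arrays that lay lowest on it were replicate 3 of young WT cortex (-0.35), of young KO hippocampus (-0.31) and of young KO cortex (-0.30), and the highest were replicate 2 of young KO hippocampus (0.40) and replicate 1 of old WT cortex (0.35). Replicate 1 of young KO hippocampus stood apart over the other tested IDs, whose deviations there had a root mean square of 0.160 log2, the next highest array having 0.121, but over members the highest was replicate 2 of that group (0.238). The part of RNA quality or of other cell types in this shared spread was not tested.

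Between the regions, 35 members were higher and 33 lower in hippocampus than in cortex, averaged over genotypes and ages. By group means, the 35 were higher for 35 members in young WT, 31 in young KO, 34 in old WT and 35 in old KO mice. The 33 were lower for 31, 33, 33 and 21 members in that order. Both lists were picked on the average, so these signs are partly fixed by the choice. All 8 group means were fitted in limma over the 14327 IDs above the threshold, and calls were made where the p adjusted over all 14327 (Benjamini-Hochberg) was under 0.05. The 68 calls are 30.8% of members, where 55.9% of all tested IDs were called, 25.6% higher and 30.3% lower. An unadjusted p under 0.05 was found for 36.2% of members and 60.2% of tested IDs. By brightness, the share called at an adjusted p under 0.05 was 25.7% of members and 41.2% of the others between 6.63 and 8 log2. It was 37% and 56% between 8 and 9, 25% and 63.6% between 9 and 10, and 57.9% and 67.2% above 10. The median size of the difference was 0.0872 log2 over members and 0.108 over all tested IDs. Its median SE was 0.0615 log2 over members and 0.0373 over all tested IDs, and the part of this in the lower share of calls was not tested. A difference of more than 1 log2 was called for 1 member (0.452%) and for 334 tested IDs (2.33%).

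ENSMUSG00000065530 was among the members highest in hippocampus relative to cortex. It read 7.58, 7.69 and 7.46 log2 in young WT hippocampus, 7.23, 8.02 and 7.34 in young KO, 7.13, 7.46 and 7.37 in old WT, and 7.45, 7.34 and 7.74 in old KO hippocampus. In cortex it read 6.86, 6.94 and 6.50 in young WT, 6.92, 6.97 and 6.60 in young KO, 6.74, 6.19 and 6.55 in old WT, and 6.51, 6.24 and 6.46 in old KO. All 12 hippocampus arrays lay above all 12 cortex arrays, a separation in this direction that 7.38% of tested IDs had. The difference was 0.86 log2 (SE 0.087, 1.82-fold, limma adjusted p = 2.0e-08). ENSMUSG00000065752 was higher in hippocampus by 0.72 log2 (SE 0.10, 1.65-fold, limma adjusted p = 2.5e-06), with group means of 8.76 to 9.19 log2 in hippocampus and 8.0 to 8.34 in cortex.

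The members lowest in hippocampus relative to cortex were ENSMUSG00000064586 and ENSMUSG00000065520. For ENSMUSG00000064586 the group means ± SD (n = 3 arrays each) were 8.77 ± 0.46 in young WT cortex, 8.89 ± 0.48 in young KO cortex, 8.2 ± 0.46 in old WT cortex and 8.15 ± 0.08 in old KO cortex. In hippocampus they were 7.32 ± 0.40, 7.24 ± 0.39, 7.73 ± 0.25 and 7.62 ± 0.22 in the same order. The regional gap was thus wide in young mice and narrower in old ones, with 1 old WT cortex array (7.82) below the highest hippocampus array (8.01). The difference was -1.02 log2 (SE 0.13, 2.03-fold, limma adjusted p = 8.3e-07). ENSMUSG00000065520 differed by -0.93 log2 (SE 0.11, 1.90-fold, limma adjusted p = 3.2e-07), with young cortex means of 10.05 ± 0.43 in WT and 10.29 ± 0.29 in KO and young hippocampus means of 8.83 ± 0.15 and 8.87 ± 0.39 (SD, n = 3 each). Old mice had a narrower gap, with cortex means of 9.71 ± 0.41 and 9.33 ± 0.20 and hippocampus means of 8.92 ± 0.24 and 9.05 ± 0.26. In old KO mice 1 cortex array (9.15) lay below the highest hippocampus array (9.27). The difference of the age changes between regions, with both genotypes averaged, was called for both members (limma adjusted p = 0.021 and 0.036). That comparison was added after the data were seen.

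In KO cortex 15 of 221 members fell with age and 0 rose. These are 6.79% of members, where 1.67% of all tested IDs were called, 0.544% falling and 1.12% rising. The median change was -0.117 log2 over members and 0.020 over all tested IDs, and 172 members had a negative change (77.8%) against 41.4% of tested IDs. The 3 old arrays lay below the 3 young ones for 63 members (28.5%), a separation in this direction that 7.95% of tested IDs had. The opposite separation was found for 3 members (1.36%) and for 13.6% of tested IDs.

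In WT cortex 0 of 221 members passed in limma, where 1.03% of tested IDs did, 0.824% rising and 0.209% falling. An unadjusted p under 0.05 belonged to 11 members in WT cortex (4.98%, against 11.3% of tested IDs) and to 63 in KO cortex (28.5%, against 15.3%). The median change was -0.0076 log2 over members and -0.0016 over all tested IDs. The smallest p in WT cortex belonged to ENSMUSG00000065649, which read 8.16, 8.34 and 8.39 log2 on the young and 8.52, 8.56 and 8.89 on the old arrays, a difference of 0.36 (SE 0.13, limma adjusted p = 0.243).

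**Figure D3:**
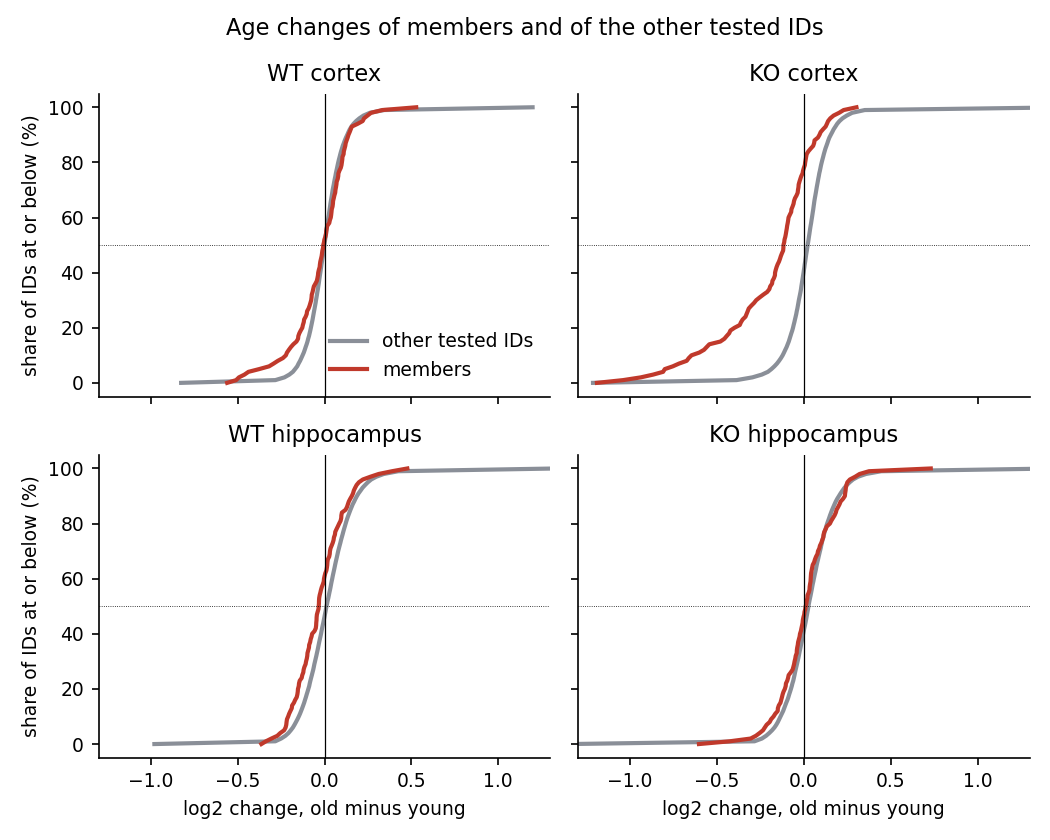
Cumulative share (%) of IDs at or below a given log2 change with age (old minus young), for the 221 members (red) and 14106 other tested IDs (grey), 1 panel for each region and genotype. In KO cortex the member curve lies to the left, with a median of -0.117 log2, while in the other 3 panels the member medians lie between -0.034 and 0.010; the axis stops at 1.3 log2.

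Whether the age change in cortex differs between genotypes is the interaction of age and genotype. It called 0 of 221 members in limma, as it called 0 of all tested IDs (0%), with an unadjusted p under 0.05 for 23 members (10.4%, against 6.21%). The difference of the changes, KO minus WT, had a median of -0.134 log2 over members and 0.015 over all tested IDs, and was negative for 185 members (83.7%) and for 44.3% of tested IDs. The member with the smallest p was ENSMUSG00000065775. It read 7.01, 7.01 and 6.89 log2 in young and 6.30, 6.51 and 6.33 in old KO cortex, and 7.06, 6.80 and 6.45 in young and 7.08, 6.56 and 6.69 in old WT cortex. Its difference of the changes was -0.60 log2 (SE 0.18, limma adjusted p = 0.555), so a genotype difference in the age change was not shown for any single member.

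The 2 members that fell furthest in KO cortex were ENSMUSG00000065419 and ENSMUSG00000065438. ENSMUSG00000065419 read 7.75, 8.03 and 6.92 log2 in young KO cortex and 5.99, 6.52 and 6.61 in old KO cortex. In WT cortex it read 7.65, 7.36 and 7.01 in young and 7.41, 6.69 and 6.35 in old mice. The KO groups did not overlap and the WT groups did, through 1 old array that lay as high as the young ones. The change in KO was -1.19 log2 (SE 0.29, 2.28-fold, limma adjusted p = 0.038), and that in WT was -0.52 (limma adjusted p = 0.529). ENSMUSG00000065438 read 8.77, 8.88 and 8.14 in young and 7.45, 7.49 and 7.71 in old KO cortex, a change of -1.05 log2 (SE 0.27, 2.07-fold, limma adjusted p = 0.048). The call of ENSMUSG00000065419 was lost without each KO cortex array other than young replicate 3, and that of ENSMUSG00000065438 without 14 of the 24 arrays.

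The count of 15 depended on single KO cortex arrays. Leaving out young KO cortex replicate 1, 2 or 3 gave 2, 1 or 23, and leaving out old KO cortex replicate 1, 2 or 3 gave 5, 3 or 4. The share of all tested IDs called, 1.67% with all arrays, moved with it, to 0.782%, 0.454% and 2.18% and to 0.852%, 0.628% and 0.642% in the same order. Replicate 3 of young KO cortex was the array nearest to the old ones for both members just described, and all 15 calls were kept without it. Without young KO hippocampus replicate 1, the array that stood apart, 17 were called, while the share of all tested IDs rose to 2.54%.

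With both genotypes averaged, 15 members fell in cortex with age and 1 rose. Of all tested IDs 5.01% were called, 1.58% falling against 6.79% of members and 3.43% rising against 0.452%. Of the 15, 12 were among the 15 that fell in KO cortex, a comparison that shares the KO arrays. The change of each of the 15 was negative in WT too, from -0.56 to -0.07 log2 with a median of -0.34, and larger in KO, from -1.19 to -0.54 with a median of -0.81. Since the list was picked for its average change, the sign in each genotype is partly fixed by the choice. ENSMUSG00000065419 fell by 0.86 log2 (SE 0.20, 1.81-fold, limma adjusted p = 0.019) and ENSMUSG00000065438 fell by 0.78 log2 (SE 0.19, 1.71-fold, limma adjusted p = 0.020).

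The array means of these 15 members, given as a description of a list picked on the same arrays, show how far each array carried the change. In young cortex they were 8.71, 8.58 and 8.14 log2 in WT and 8.81, 8.91 and 8.36 in KO. In old cortex they were 8.52, 8.04 and 7.88 in WT and 7.85, 7.84 and 7.94 in KO. The 3 old KO arrays lay close together and low, whereas old WT replicate 1 lay within the young range and replicate 3 of both young groups lay nearest to the old ones. In hippocampus the 12 values ran from 7.74 to 8.28 with young and old arrays mixed. The array means of the other 206 members spanned less, 7.84 to 8.08 over the 24 arrays, but in KO cortex they too were lower in old mice (7.85, 7.84 and 7.93) than in young ones (8.0, 8.08 and 8.0), without overlap. Old KO cortex replicates 1 and 2 were the lowest of the 24, while the mean over all tested IDs was 9.01, 9.03 and 9.01 in young and 9.02, 9.03 and 9.04 in old KO cortex.

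**Figure D4:**
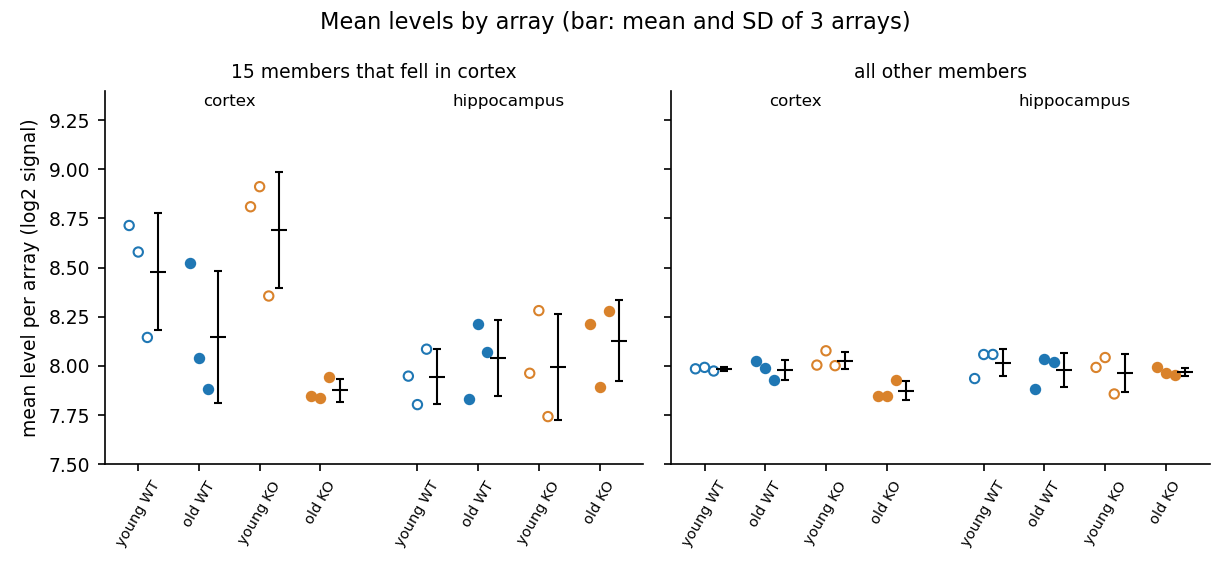
Mean log2 level per array of the 15 members that fell with age in cortex (left) and of the other 206 members (right), for the 24 arrays in 8 groups (open points young, filled points old, blue WT, orange KO; bars are the mean and SD of 3 arrays). The 15 were picked for their cortex change, and their old KO cortex arrays lie between 7.84 and 7.94 log2, below all 3 young KO arrays.

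The same arrays carried the shared within-group spread. The 15 members had, on average, deviations from the group mean of -0.33 log2 on replicate 3 of young WT cortex, -0.34 on replicate 3 of young KO cortex and 0.38 on replicate 1 of old WT cortex. All 15 loaded positively on the shared component, and 8 of them were among its 20 largest loadings. Their median within-group SD was 0.279 log2, above the 0.165 of all members. The members that fell with age in cortex thus lay on 1 side of the shared component, and the part of this in the age change was not tested.

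Leaving out single cortex arrays moved the count of 16 called members by more than 1.5 times in either direction. Leaving out young WT cortex replicate 1, 2 or 3 gave 7, 9 or 27, and leaving out young KO cortex replicate 1, 2 or 3 gave 5, 5 or 27. Leaving out old WT cortex replicate 1, 2 or 3 gave 30, 6 or 5, and leaving out old KO cortex replicate 1 or 2 gave 7 each time. The 3 arrays whose removal took the count to 27 or more were those that lay nearest to the opposite age, and all 16 calls were kept without each of them. The share of all tested IDs called, 5.01% with all arrays, was 6.07%, 5.59% and 5.6% in the fits with 27, 27 and 30 calls. In the other fits listed here it was 2.22% to 3.71%. The highest share over the 24 fits, 6.74%, came without young KO hippocampus replicate 1, where 21 members were called.

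By ID range, 5 of the 64 members in the first range fell in cortex, 0 of the 51 in the second and 10 of the 106 in the last. The ranges were drawn after the calls were seen and carry no test. The 1 member that rose was ENSMUSG00000065649. Its young cortex arrays read 8.16, 8.34 and 8.39 log2 in WT and 8.19, 8.35 and 8.45 in KO, and its old ones 8.52, 8.56 and 8.89 in WT and 8.89, 8.56 and 8.36 in KO. One old KO array lay within the young range. The change was 0.32 log2 (SE 0.090, 1.25-fold, limma adjusted p = 0.044), and the call was lost under 3 of 9 other settings and without 13 of the 24 arrays.

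In hippocampus, with both genotypes averaged, 3 members rose with age and 3 fell, 2.71% of members where 18% of tested IDs were called (12.4% rising and 5.63% falling). The median change was -0.024 log2 over members and 0.018 over all tested IDs. In WT hippocampus 1 member rose and 2 fell (1.36% of members), where 3.78% of tested IDs rose, 1.21% fell and 4.98% were called in all. In KO hippocampus 2 rose and 1 fell (1.36%), where 4.13% of tested IDs rose, 1.25% fell and 5.38% were called in all. Members with an unadjusted p under 0.05 numbered 20 in WT (9.05%, against 21.1% of tested IDs) and 17 in KO (7.69%, against 21.8%). The median SE within 1 genotype was 0.123 log2 over members and 0.0746 over all tested IDs, and its part in these counts was not tested.

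ENSMUSG00000065615 fell with age in the hippocampus of both genotypes. It read 7.05, 7.06 and 7.06 log2 in young and 6.70, 6.85 and 6.81 in old WT mice, and 7.09, 6.97 and 6.85 in young and 6.63, 6.71 and 6.60 in old KO mice. Young and old arrays did not overlap within either genotype, a downward separation that 13.3% of tested IDs had in WT and 6.67% in KO hippocampus. It fell by 0.27 log2 in WT (SE 0.060, 1.20-fold, limma adjusted p = 0.015), by 0.32 in KO (SE 0.060, 1.25-fold, limma adjusted p = 4.0e-03) and by 0.29 over both (SE 0.043, limma adjusted p = 1.1e-04). In cortex its group means were 6.87 and 6.82 in young and old WT and 6.85 and 6.69 in young and old KO.

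ENSMUSG00000064796 also fell in hippocampus. Its arrays read 8.04, 8.24 and 8.16 log2 in young and 7.88, 7.74 and 7.85 in old WT mice, and 7.97, 7.89 and 8.17 in young and 7.80, 7.79 and 7.77 in old KO mice. All 6 old arrays lay below all 6 young ones, which 2.53% of tested IDs did. It fell by 0.32 log2 in WT (SE 0.079, 1.25-fold, limma adjusted p = 0.022) and by 0.27 over both genotypes (SE 0.056, 1.21-fold, limma adjusted p = 2.3e-03). In KO alone its group means were 8.01 in young and 7.79 in old mice, and this fall was not called. The calls over both genotypes of ENSMUSG00000065615 and ENSMUSG00000064796 were kept without each of the 24 arrays in turn. The WT call was lost without 3 arrays for ENSMUSG00000065615 and without 5 for ENSMUSG00000064796.

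ENSMUSG00000065150 and ENSMUSG00000064858 rose in KO hippocampus. The first read 5.69, 6.61 and 6.75 log2 in young and 7.02, 7.08 and 7.15 in old KO mice, the value of 5.69 being on the array that stood apart. Its change of 0.73 log2 (SE 0.21, 1.66-fold, limma adjusted p = 0.042) was 0.40 and not called without that array, young KO hippocampus replicate 1. The call was lost without 7 of the 24 arrays in all and under 3 of 8 other settings. ENSMUSG00000064858 read 7.13, 7.33 and 7.29 in young and 7.5, 7.54 and 7.45 in old KO mice, a rise of 0.25 log2 (SE 0.059, 1.19-fold, limma adjusted p = 0.020), and its 3 lowest hippocampus arrays were the young KO ones. Without young KO hippocampus replicate 1 that rise was 0.19 and was not called.

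Counts in hippocampus moved with single arrays. In WT it was 0 without young WT hippocampus replicate 2 or 3 or old WT hippocampus replicate 1, 1 without old WT hippocampus replicate 2, and 6 without young KO hippocampus replicate 1, in place of 3. The share of all tested IDs called moved likewise from 4.98%, to 1.24%, 1.64%, 1.49%, 2.27% and 7.04% in that order. In KO it was 1 without young KO hippocampus replicate 1 or old KO hippocampus replicate 1 or 2, and 7 without young KO hippocampus replicate 2 or 3, in place of 3. There the share of all tested IDs went from 5.38% to 3.63%, 1.89% and 3.06%, and to 6.27% and 5.21%. Over both genotypes 15 were called without young KO hippocampus replicate 2 or 3, in place of 6, while the share of all tested IDs went from 18% to 20% and 17.2%.

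ENSMUSG00000065459 moved in opposite directions in the 2 regions. In cortex it read 8.65, 8.61 and 8.23 log2 in young and 8.39, 8.22 and 8.08 in old WT mice, and 8.83, 8.83 and 8.38 in young and 8.23, 7.99 and 8.10 in old KO mice. In hippocampus it read 7.74, 7.71 and 7.82 in young and 8.10, 8.30 and 8.29 in old WT mice, and 7.75, 8.10 and 7.96 in young and 8.37, 8.17 and 8.46 in old KO mice. Young arrays thus lay higher in cortex than in hippocampus, and the old arrays of both regions lay in 1 range, from 7.99 to 8.46.

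Over both genotypes ENSMUSG00000065459 fell by 0.42 log2 in cortex (limma adjusted p = 7.9e-03) and rose by 0.44 in hippocampus (SE 0.089, 1.35-fold, limma adjusted p = 2.2e-03). Its change in cortex was -0.27 log2 in WT, which was not called (limma adjusted p = 0.435), and -0.57 in KO (limma adjusted p = 0.021). Over both genotypes it was the 1 member called with age in both regions, where 245 tested IDs were, 32 of them in opposite directions. The difference of the age changes, hippocampus minus cortex, was 0.74 log2 in WT (SE 0.18, limma adjusted p = 0.036), and it was the 1 member of 221 (0.452%) called for this difference, where 2.04% of tested IDs were. In WT hippocampus alone the rise was 0.48 log2 (SE 0.13, limma adjusted p = 0.033), a call lost without each of the 6 WT hippocampus arrays. In KO the difference was 0.97 log2 (SE 0.18, limma adjusted p = 0.028), a comparison added after the data were seen.

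That WT call was lost without 10 of the 24 arrays, each of them a WT array, and the difference lay between 0.67 and 0.88 log2 over all 24 fits. No member was called (a count of 0) without young WT cortex replicate 1 or 2, old WT cortex replicate 1 or 3, young WT hippocampus replicate 1, 2 or 3, or old WT hippocampus replicate 1 or 2. In these fits the share of all tested IDs called also dropped, from 2.04% to between 0.0419% and 1.26%. Leaving out young WT cortex replicate 3 gave 2 calls in place of 1, and leaving out old WT hippocampus replicate 3 gave 1, which was another member. With both genotypes averaged, also added afterwards, 15 members were called for the difference (6.79% against 8.55% of tested IDs), of which 13 had the higher change in hippocampus (5.09% of tested IDs) and 2 the lower (3.46%). Of the 15 members that fell in cortex, 10 were among the 13. The difference holds the same cortex change that picked the 15, so this overlap is partly fixed by the choice.

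**Figure D5:**
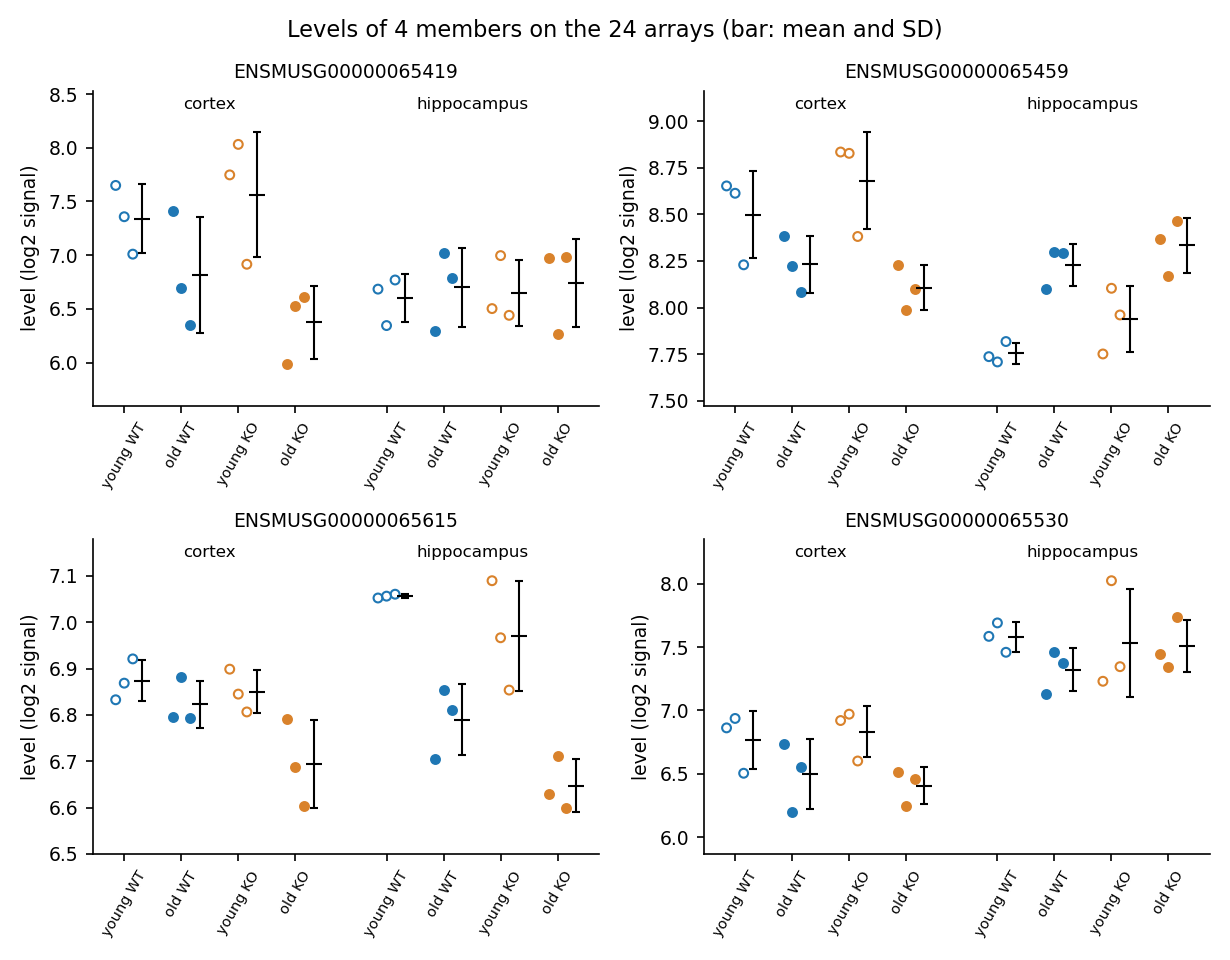
Log2 level of 4 members on each of the 24 arrays, by region, genotype and age (open points young, filled points old, blue WT, orange KO; bars are the mean and SD of 3 arrays, and each panel has its own axis). ENSMUSG00000065419 is lower in old KO cortex (5.99 to 6.61) than in young KO cortex (6.92 to 8.03), ENSMUSG00000065459 falls in cortex and rises in hippocampus, ENSMUSG00000065615 is lower in old hippocampus, and ENSMUSG00000065530 is higher on all hippocampus arrays.

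No member was called between KO and WT in a single region and age, a count of 0 of 221 in limma in each of the 4 comparisons, where 0.00698% of tested IDs, 1 that is no member, were called in each. Members with an unadjusted p under 0.05 numbered 5 in young cortex (2.26%, against 2.87% of tested IDs), 21 in old cortex (9.5% against 5.91%), 25 in young hippocampus (11.3% against 6.56%) and 5 in old hippocampus (2.26% against 3.03%). Averaged over regions and ages the count in limma was again 0, with 0.014% of tested IDs called, and 23 members had an unadjusted p under 0.05 (10.4% against 5.72%). The interaction of age and genotype in hippocampus called 0 members and 0% of tested IDs, with 14 members at an unadjusted p under 0.05 (6.33% against 4.06%).

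Old cortex was the group in which members of KO mice lay lowest. Their median difference from WT was -0.106 log2 there, against 0.014 over all tested IDs, and it was negative for 188 of 221 members (85.1%) and for 42.7% of tested IDs. In young cortex the median over members was 0.033 log2 with 80 negative (36.2%, against 50.4% of tested IDs). In young hippocampus it was -0.041 with 140 negative (63.3%, against 52.9%), and in old hippocampus -0.0023 with 112 negative (50.7%, against 48.9%). The 3 KO arrays lay below the 3 WT arrays in old cortex for 30 members (13.6%, against 3.6% of tested IDs) and above them for 0 (8.59% of tested IDs). In young hippocampus 25 members lay below (11.3%, against 5.56%). The comparisons of age in KO cortex and of genotype in old cortex share the 3 old KO cortex arrays, so their shifts are not separate observations.

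The smallest p in old cortex was that of ENSMUSG00000065479, which read 9.12, 9.0 and 8.88 log2 in WT and 8.54, 8.65 and 8.79 in KO, a difference of -0.34 (SE 0.11, limma adjusted p = 0.771). In young cortex it was ENSMUSG00000065504, at 7.81, 7.63 and 7.82 in WT and 8.0, 8.26 and 8.16 in KO, a difference of 0.39 (SE 0.13, limma adjusted p = 1). The groups of both did not overlap, and neither difference passed the test. In young hippocampus it was ENSMUSG00000064858 (-0.25, SE 0.059, limma adjusted p = 0.389) and in old hippocampus ENSMUSG00000065430 (-0.47, SE 0.15, limma adjusted p = 0.999). ENSMUSG00000065430 also had the smallest p for the interaction of age and genotype in hippocampus, at -0.79 log2 (SE 0.22, limma adjusted p = 0.999). Averaged over all regions and ages it was ENSMUSG00000065446, at -0.12 log2 (SE 0.035, limma adjusted p = 0.818).

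The 688 IDs of the block below the threshold were also fitted. In a fit of all 23879 IDs, 66 of them differed between hippocampus and cortex (9.59%, against 37.3% of all IDs), 5 changed with age in KO cortex (0.727%, against 0.888%) and 2 in WT cortex (0.291%, against 0.574%). In limma 0 changed with age in WT hippocampus, where 32 had an unadjusted p under 0.05 and 2.15% of all IDs were called, while 1 did in KO (0.145%, against 2.41%). None was called between KO and WT in any of the 5 comparisons of genotype (a count of 0), with 13 to 30 of the 688 at an unadjusted p under 0.05. For age, such a p belonged to 63 of the 688 in KO cortex, 26 in WT cortex and 32 in KO hippocampus. The share of all IDs with such a p is not given for this fit, so these unadjusted counts cannot be set against it. At these levels the share of signal that is background is unknown.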

How the data were processed

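Per the labels' protocols, total RNA was extracted with QIAzol and purified on RNeasy columns, pooled from 2 to 3 mice, and labelled by in vitro transcription for Affymetrix arrays. Such columns retain short RNAs less well than long ones. For 23879 IDs on 24 arrays, the authors deposited log2 signals of 3.99 to 14.4, 0 of them missing. The submitters' processing notes name MAS5 and RMA without saying what each did. How probes were joined into IDs, on which array model and annotation build, is not given in the sources used here. That the unit is log2 was taken from the range. The array medians were nearly equal (7.31 to 7.42). Near-identical gene copies may share probes, and 0 IDs had identical values. Arrays carry no read depth, and their number limits the precision.

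IDs with a mean above the 40th percentile (6.63) were fitted with limma 3.58.1 in R 4.3.3 (8 group means, 16 residual degrees of freedom, eBayes, two-sided tests, Benjamini-Hochberg over 14327 IDs, called under 0.05). The fit was tested on simulated data. Named members are, per comparison, the 2 called members that rose most and the 2 that fell most, or else the 1 with the smallest p, plus the brightest, the most variable and those at the threshold; another is named only where a count needs it. Members and lists were chosen with earlier results of these data known. Planned gene lists, RNA classes and marker lists need names and were not run.

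Alternatives were no filter, a 60th percentile filter, median centring, quantile normalization, array weights, an intensity trend, a fit per region, a replicate block, a random block across regions, and leaving out each array.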

Additional observations from a re-analysis of the deposited data

Results flagged for a closer look

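By the interaction of age and region, ENSMUSG00000065459 changed differently in the 2 regions, its age change in WT mice being higher by 0.74 log2 in hippocampus than in cortex (SE 0.18, limma adjusted p = 0.036, range over the other settings 9.7e-03 to 0.124). Groups of 3 arrays are too small for a test of single outlying arrays, so none was run.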

How the results depend on the processing

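With the replicate number as a block, 14 members were called with age in KO cortex, 17 in cortex and 9 in hippocampus over both genotypes, and 69 between regions, and no count moved by over 1.5 times. The numbers were not taken to pair the arrays, since 0 of 8 comparisons within a region had all 3 correlations of same-numbered arrays over 0.1 (range -0.28 to 0.33), and across regions 0 of 4 groups did (-0.25 to 0.29). A random replicate block of same-numbered cortex and hippocampus arrays, added after seeing the data, gave 69 between regions and 1 for age by region in WT. The 60th percentile filter, which tests fewer members, left 9 with age in KO cortex, 1 in WT hippocampus, 0 in KO hippocampus, 9 in cortex and 3 in hippocampus over both genotypes, and 29 between regions. With no filter 10 were called with age in cortex over both genotypes, where 2.47% of all IDs were, and 0 for age by region in WT, where 0.67% were. Array weights gave 10 in WT hippocampus and 10 in hippocampus over both genotypes, and quantile normalization gave 11 there. The cause was not tested. For the blocks, the 60th percentile filter, array weights and quantile normalization the share of all tested IDs is not given. Whether those counts moved with that share is therefore not shown. Averaging genotypes, an alternative chosen after seeing the data, gave 15 for age by region. Without 1 array the counts ran from 1 to 23 (KO cortex), 0 to 6 (WT hippocampus), 1 to 7 (KO hippocampus), 5 to 30 (cortex), 4 to 15 (hippocampus), 56 to 78 (between regions) and 0 to 2 (age by region). The counts of 0 for WT cortex, KO against WT and age by genotype stayed 0 under all settings run. The median age change of members in KO cortex lay between -0.153 and -0.0961 log2, and no named change reversed. Without detection calls, signal cannot be set against background.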
